A study of Arabidopsis thaliana with 4 samples.

Results

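Numbered genes of the WRKY, NAC and ZAT families, which code for DNA-binding proteins known for their part in stress and senescence responses, were followed in albino and normal Arabidopsis thaliana plants. They were taken by gene symbol: WRKY, ERF, NAC, ANAC or ZAT followed by a number, on probe sets that the platform annotation pairs with a single gene, with ZAT10 included under its file symbol STZ. This gave 8 genes with 1 probe set each out of 13356 genes named in this way: WRKY6, WRKY20, WRKY22, WRKY42, WRKY47, WRKY53, NAC014 and ZAT10. No numbered ERF gene was paired with a single-gene probe set, so the ERF family is not analysed here, and the NAC and ZAT families rest on 1 gene each. The TAIR10.1 gene records hold 67 WRKY, 81 NAC or ANAC, 21 ERF and 3 ZAT genes with symbols of this form. Most genes of these families are therefore not covered. WRKY1, which the annotation lists as ZAP1, falls outside the symbol rule and is given separately below.

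Total RNA from 3-week-old plants of the albino line DS 13-2198-1 was hybridized to 2 arrays titled albino and 2 titled control. Albino and normal segregants came from the same parental line and were grown on the same plates of half-strength salts medium containing 2% sucrose, at 23 °C, with 16 h of light and 8 h of dark. The labels name no disrupted gene, no organ and no number of plants per sample, and a free-text field describes every sample as wild type. The groups therefore follow the titles, and with no disrupted gene named, no targeted transcript was checked here. It is not stated whether replicates came from separate plants, so each p-value reflects variation among 4 arrays that may be technical.

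WRKY proteins bind the W box in the promoters of defence and senescence genes, and several of them act on one another's promoters. NAC proteins are plant-specific transcription factors, some of which are held at membranes until they are released by a signal. ZAT10 is a zinc finger protein with an EAR motif, a short repression motif, and its transcript is induced by cold, salt, drought, wounding and high light. In leaves, WRKY53 and WRKY6 are known for their increase during senescence and pathogen attack.

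Values below are log2 probe-set summaries, so a difference of 1 is a factor of 2, and differences are albino minus control. Arrays with the same replicate number had nearly the same distribution of values (largest quantile gap 0.07 for number 1 and 0.085 for number 2), while arrays of different number within a group differed by up to 0.35. For that reason each difference is given within replicate 1, within replicate 2 and as a mean, and the test is given with and without the replicate number as a block. Differences over all 22746 probe sets were wider in replicate 1 (SD 0.60) than in replicate 2 (SD 0.36).

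For 3 of the 8 genes both albino arrays lay below both control arrays, against 13.6% of all probe sets. These were WRKY53, WRKY6 and ZAT10, with mean differences of -1.13, -1.09 and -0.90. WRKY47 was lower within each replicate, with a mean difference of -0.54. WRKY20, WRKY22, WRKY42 and NAC014 differed by at most 0.35 in either replicate. For NAC014, 1 of the 8, both albino arrays lay above both control arrays, against 16.2% of all probe sets. With limma, 0 of the 8 genes passed an adjusted p under 0.05 without the block, where 0% of all probe sets were called lower and 0% higher, and again 0 of 8 with the block, against 0% and 0%. At an unadjusted p under 0.05, 3 of the 8 were lower, against 3.08% of all probe sets. In the fit that includes the block it was 4 of the 8, against 7.53%. No gene of the 8 was higher at that level in either fit, against 2.68% of all probe sets without the block and 7.17% with it.

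**Figure D1:**
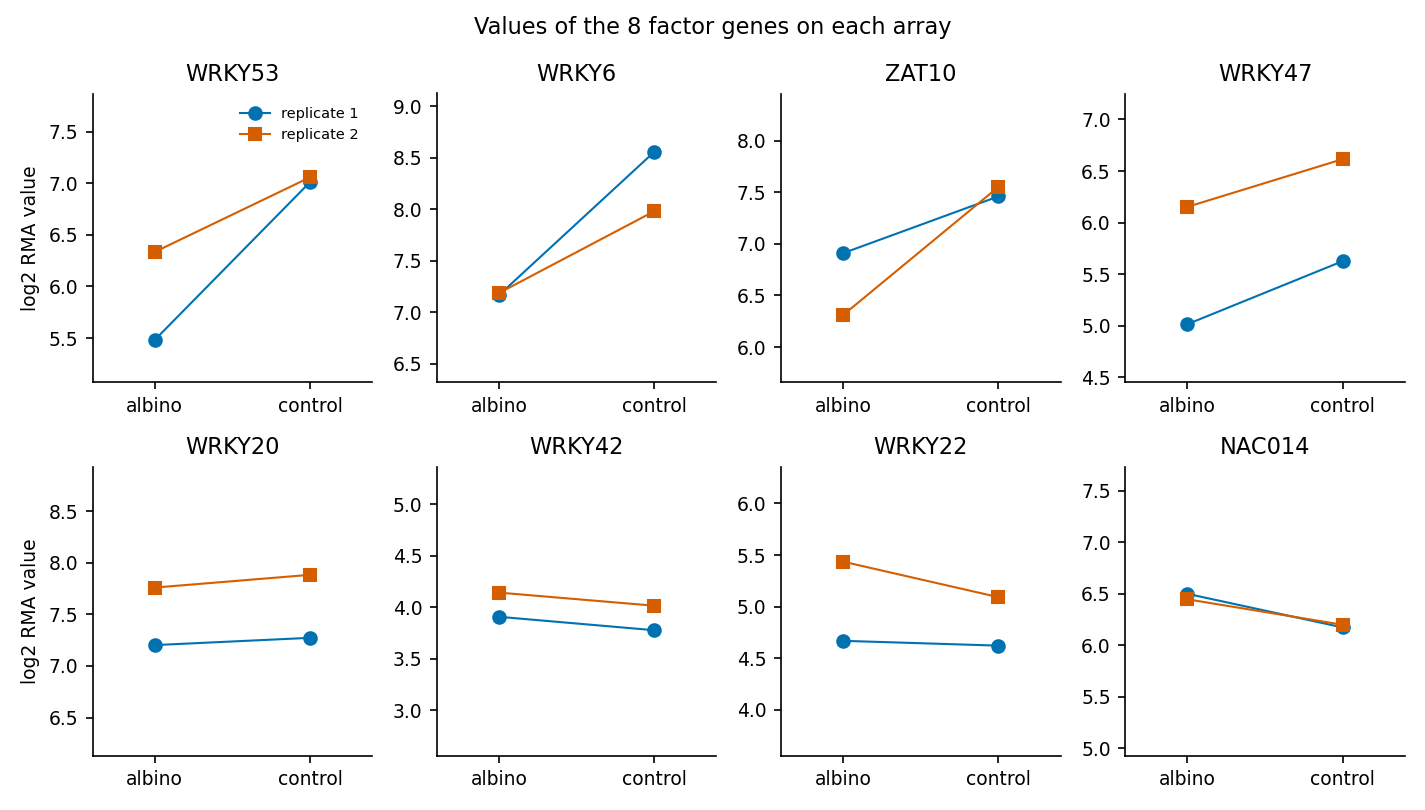
Log2 RMA value (y axis, each panel spanning the same range of log2 units) of the 8 genes on the albino and control arrays, with a line joining arrays of the same replicate number (circles, replicate 1; squares, replicate 2). For WRKY53, WRKY6, ZAT10 and WRKY47 both lines climb toward control, and for NAC014 both lines climb toward albino.

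WRKY53 codes for a group III WRKY factor that promotes leaf senescence. Its probe set read 5.48 and 6.34 on the albino arrays of replicate 1 and 2, against 7.01 and 7.06 on the control arrays. The albino arrays thus differed from each other more than the control arrays did, and the groups did not overlap. The means were 5.91 ± 0.60 in albino and 7.04 ± 0.03 in control (SD, n = 2 each), which is 2.18-fold lower in albino on the linear scale. The difference of -1.13 (SE 0.35) was -1.53 in replicate 1 and -0.72 in replicate 2. Its limma p was 0.0204, with adjusted p = 0.75 across the array and adjusted p = 0.227 in the blocked fit. Of all probe sets, 1.42% were as low or lower in replicate 1 and 3.27% in replicate 2. Without albino replicate 1 the difference was -0.70 and without albino replicate 2 it was -1.55.

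WRKY6, a group IIb factor, is linked to senescence, defence and, with its relative WRKY42, to the loading of phosphate into the xylem. It read 7.17 and 7.19 on the albino arrays, against 8.56 and 7.98 on the control arrays. Here the albino arrays were close together and the control arrays spread, the reverse of WRKY53, and the groups again did not overlap. The albino mean of 7.18 ± 0.01 lay 1.09 (SE 0.30) below the control mean of 8.27 ± 0.41 (SD, n = 2 each), or 2.13-fold lower on the linear scale. The difference was -1.39 in replicate 1 and -0.79 in replicate 2, where 1.82% and 2.70% of all probe sets were as low or lower. The limma p was 0.0119, with adjusted p = 0.744 and, with the block, adjusted p = 0.217.

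The other group IIb genes covered were WRKY47 and WRKY42. WRKY47 read 5.01 and 6.15 in albino, against 5.63 and 6.62 in control. Both arrays of replicate 2 were higher than both arrays of replicate 1, so the groups overlapped although albino was lower within each replicate, with differences of -0.61 and -0.46. The mean difference was -0.54 (SE 0.51, limma adjusted p = 1). With the block the SE was 0.15 and the p 0.0251, with adjusted p = 0.278. Without albino replicate 1 the difference turned to 0.032, since that fit sets replicate 2 of albino against both control arrays.

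WRKY42 was dim, between the 18.4th and 28.8th percentile of all values on an array, where RMA compresses differences. It read 3.91 and 4.14 in albino, against 3.78 and 4.02 in control. The differences of 0.13 in replicate 1 and 0.13 in replicate 2 made a mean of 0.13 (SE 0.26), with a 95% interval of -0.53 to 0.79. Without control replicate 1 the difference was 0.0098 and without control replicate 2 it was 0.25. The differences of the group IIb genes were not tested against each other.

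Groups I and IIe had 1 gene each. WRKY20, a group I factor, which carries a pair of WRKY domains, read 7.20 and 7.76 in albino, against 7.27 and 7.88 in control. Its difference of -0.10 (SE 0.35) was -0.07 in replicate 1 and -0.12 in replicate 2, and the 95% interval ran from -0.96 to 0.77, or from -0.51 to 0.32 with the block. WRKY22, a group IIe factor that acts downstream of mitogen-activated protein kinases in immunity, read 4.67 and 5.44 in albino, against 4.62 and 5.09 in control. It differed by 0.05 in replicate 1 and 0.34 in replicate 2, a mean of 0.20 (SE 0.36) with a 95% interval of -0.71 to 1.10. For both genes the replicates lay farther apart than the groups, and leaving out 1 array could turn the sign, giving 0.21 for WRKY20 without control replicate 2 and -0.19 for WRKY22 without albino replicate 2. The unblocked intervals include no change and also a change of the size seen in WRKY47, while the blocked interval of WRKY20 ends just short of it. The blocked interval of WRKY22, from -0.27 to 0.66, includes a rise of that size but not a fall.

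NAC014 belongs to the NAC factors with a membrane anchor. It read 6.50 and 6.45 in albino, against 6.17 and 6.20 in control. The groups did not overlap and the arrays of a group agreed closely, with means of 6.47 ± 0.04 in albino and 6.19 ± 0.02 in control (SD, n = 2 each). The difference was 0.29 (SE 0.25), with 0.33 in replicate 1 and 0.25 in replicate 2, and 24.1% and 20.9% of all probe sets were as high or higher there. Its limma adjusted p was 1, and 0.458 with the block. Without variance moderation its p was 0.0105, the lowest over the alternatives, again with adjusted p = 1.

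ZAT10 read 6.91 and 6.31 in albino, against 7.46 and 7.55 in control. Both albino arrays were below both control arrays, and the lower of them was that of replicate 2. The difference of -0.90 (SE 0.30), 1.86-fold lower in albino, was -0.55 in replicate 1 and -1.24 in replicate 2, where 13.1% and 0.541% of all probe sets were as low or lower. The limma p was 0.0277, with adjusted p = 0.787, or adjusted p = 0.248 with the block. Without albino replicate 2 the difference was -0.60.

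The genes thus differed in which replicate showed more of the difference. In units of the SD of all differences in the same replicate, WRKY53 was at -2.56 in replicate 1 and -1.99 in replicate 2, and WRKY6 at -2.32 and -2.18. ZAT10 was at -0.92 and -3.42. WRKY47 was at -1.02 and -1.27. On this scale WRKY6 and WRKY47 changed little between the replicates, while ZAT10 was within 1 SD of 0 in replicate 1 and beyond 3 SD in replicate 2. These are descriptions of single arrays with no test.

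**Figure D2:**
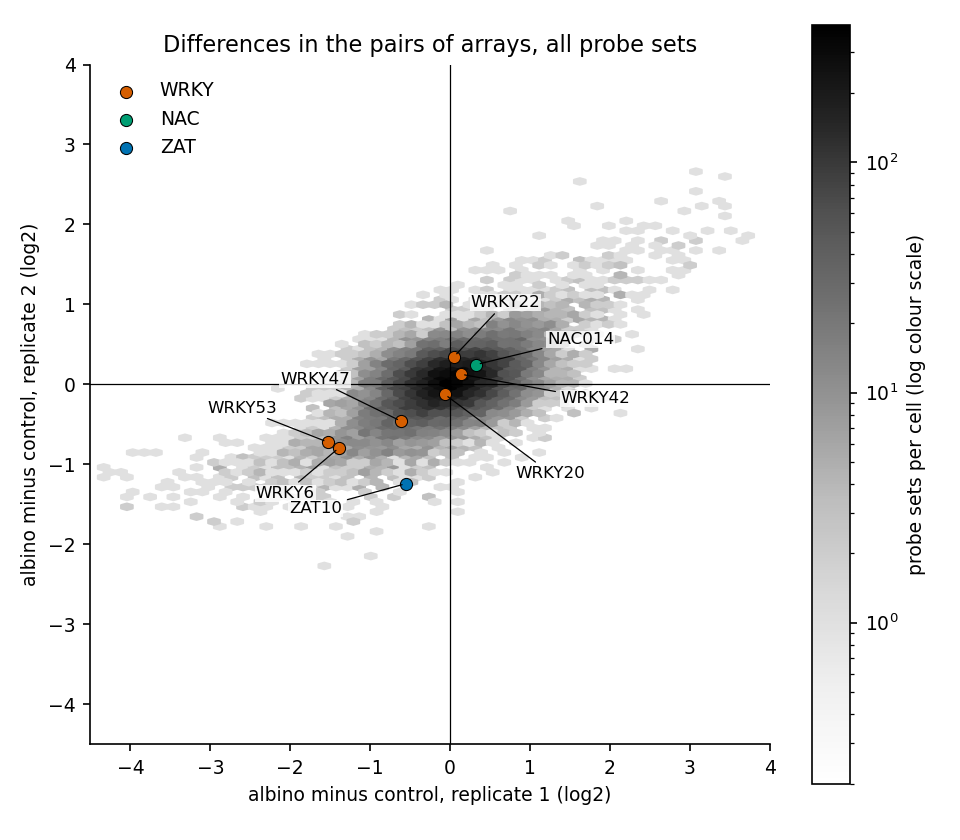
Albino minus control (log2) in replicate 1 (x axis) against replicate 2 (y axis) for the probe sets (grey cells, darker with more probe sets) and the 8 genes (coloured points by family). Of the 22746 probe sets, those with a difference beyond the axis limits are not shown. WRKY53 and WRKY6 lie together at the lower left, ZAT10 lies lower than these and farther right, and the other 5 lie nearer to the centre.

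By family, 4 of the 6 WRKY genes covered, out of 67 in the gene records, were lower and 2 higher in both replicates. Their median difference was -0.32 (-0.34 in replicate 1 and -0.29 in replicate 2). The single ZAT gene was lower and the single NAC gene higher in both. Over the 8 genes, 5 were lower in both replicates, against 28.5% of all probe sets, and 3 were higher in both, against 34.6%. None of the 8 went opposite ways, against 8387 of the 22746 probe sets. Both albino arrays lay below both control arrays for 3 of the 8, against 13.6% of all probe sets, and above them for 1 of the 8, against 16.2%. The median difference of the 8 was -0.32, against 0.02 over all probe sets. None was at least 2-fold lower in both replicates, as 0.963% of all probe sets were. The median of the WRKY genes depends on few members: it was -0.54 without the dimmest 25% of probe sets, which removes WRKY42, and -1.09 without the dimmest 50%, which leaves WRKY6, WRKY20 and WRKY53. It also depends on single arrays: it was 0.11 without albino replicate 1 and 0.08 without control replicate 2, against -0.74 without albino replicate 2 and -0.60 without control replicate 1.

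**Figure D3:**
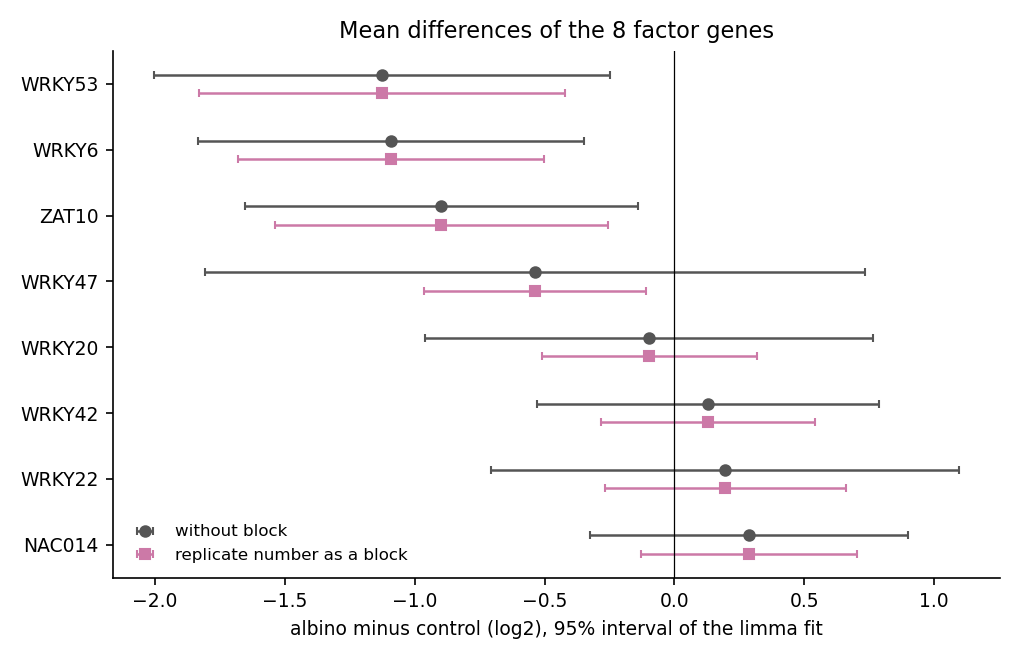
Mean difference of each gene, albino minus control (log2, x axis), with the 95% interval of the limma fit without a block (grey circles) and with the replicate number as a block (pink squares). Intervals for WRKY53, WRKY6 and ZAT10 lie below 0 in both fits before adjustment over all probe sets, and that of WRKY47 only with the block.

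Of 19 MYB, bZIP and bHLH genes taken by symbol in the same way, 7 were lower and 6 higher in both replicates and 6 went opposite ways. Of all 22746 probe sets, 28.5% were lower and 34.6% higher in both, and 8387 went opposite ways. The median difference of the 19 genes was -0.05, with a range of -0.42 to 1.19. The lowest of them was nearer to 0 than WRKY47, ZAT10, WRKY6 and WRKY53, and the families were not tested against each other. WRKY1, a group I factor recorded as ZAP1, read 7.44 and 8.43 in albino, against 7.24 and 8.44 in control. Its differences of 0.20 in replicate 1 and -0.01 in replicate 2 gave a mean of 0.09 (SE 0.52).

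Genes of stress, hormone and senescence pathways were taken from 8 lists with 140 members, of which 9 were paired with a single-gene probe set. A link between these genes and the 8 factors was not tested. Here and below, measured means paired in this way. Other listed genes may be on the array, among the 8730 probe sets with no gene named or the 503 with several. Of the 9, 4 were lower and 3 higher in both replicates, against 28.5% and 34.6% of all probe sets. Both albino arrays lay below both control arrays for 3 of the 9, against 13.6% of all probe sets. They lay above both control arrays for 3 of the 9, against 16.2%. With or without the block 0 passed limma's adjusted p, against 0% of all probe sets. Their median difference was 0.02, against 0.02 over all probe sets. At an unadjusted p under 0.05, 2 of the 9 were lower and 0 higher without the block, against 3.08% and 2.68% of all probe sets. With the block 3 of the 9 were lower and 2 higher (RTE1 and COR15B), against 7.53% and 7.17%. None of the 25 listed jasmonate genes was paired with a single-gene probe set.

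In the senescence list 1 of 11 was measured, SAG29, which codes for a sugar transporter of senescing leaves and is also known as SWEET15. It read 6.60 and 6.32 in albino, against 8.24 and 8.59 in control. The groups did not overlap, and in replicate 2 no other probe set was as low. The difference of -1.96 (SE 0.28) was -1.64 in replicate 1 and -2.27 in replicate 2, with limma adjusted p = 0.59 and, with the block, adjusted p = 0.217.

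Of the salicylate list 1 of 17 was measured. SAG101, which works with EDS1 in immune signalling and was first described as a senescence-associated gene, read 5.24 and 5.69 in albino, against 6.35 and 6.50 in control. Both albino arrays were below both control arrays, with differences of -1.10 in replicate 1 and -0.82 in replicate 2. The difference was -0.96 (SE 0.28, limma adjusted p = 0.75, with the block 0.217).

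Of the list of immune kinases and camalexin synthesis 1 of 16 was measured. BIK1, a receptor-like cytoplasmic kinase that signals from immune receptors at the plasma membrane, read 6.29 and 7.89 in albino, against 8.10 and 8.70 in control. The groups did not overlap, but the SD over the albino arrays was 1.13. The difference of -1.31 (SE 0.56) was -1.81 in replicate 1 and -0.81 in replicate 2, with limma adjusted p = 0.911 and, with the block, 0.227. Without albino replicate 2 it was -2.11 and without albino replicate 1 it was -0.51.

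Of the 20 genes in the ethylene list, the pathway upstream of ERF factors, 2 were measured. For both, each albino array lay above both control arrays, as for 16.2% of all probe sets. EIN3, the transcription factor that turns on ethylene responses including ERF1, read 10.41 and 10.51 in albino, against 9.95 and 10.22 in control, a difference of 0.38 (SE 0.26), or 0.24 without control replicate 1. RTE1, which promotes the activity of the ethylene receptor ETR1, read 8.21 and 8.27 in albino, against 7.80 and 7.84 in control. It differed by 0.42 (SE 0.25), with 0.41 in replicate 1 and 0.43 in replicate 2. Both had limma adjusted p = 1, and adjusted p = 0.373 and 0.333 with the block.

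For reactive oxygen and retrograde signalling 1 of 17 was measured, NDB2, an alternative NADH dehydrogenase of mitochondria. It differed by -1.21 in replicate 1 and -0.30 in replicate 2, a mean of -0.75 (SE 0.51), and its groups overlapped. Without albino replicate 1 the NDB2 difference was -0.05 and without albino replicate 2 it was -1.46. Of the 13 cold and touch genes 2 were measured, both of the cold-regulated COR15 pair of chloroplast proteins. COR15B read 7.60 and 7.55 in albino, against 7.23 and 6.98 in control, a difference of 0.47 (SE 0.26). COR15A went opposite ways, by -0.22 in replicate 1 and 0.48 in replicate 2. So did COR47, a dehydrin and the 1 measured of 21 abscisic acid and drought genes, by 0.13 and -0.09.

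**Figure D4:**
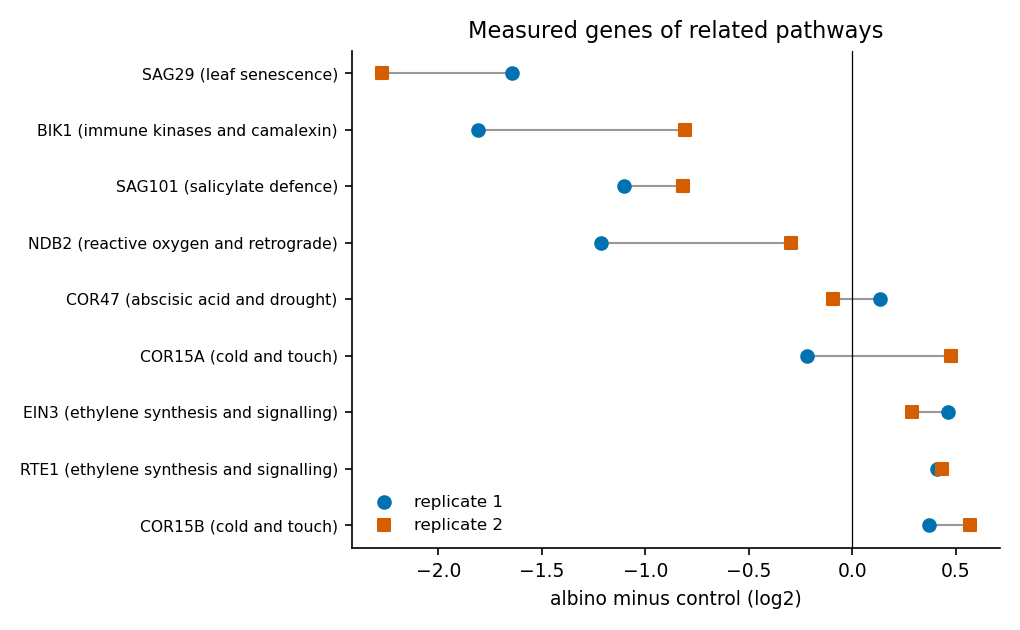
Albino minus control (log2, x axis) in replicate 1 (circles) and replicate 2 (squares) for the 9 measured genes of related pathways, with a grey line joining the replicates. SAG29, BIK1, SAG101 and NDB2 lie below 0 in both replicates, EIN3, RTE1 and COR15B above 0 in both, and COR47 and COR15A on both sides of 0.

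Of 29 listed markers of organs and cell types, 5 were paired with a single-gene probe set. None of these was a marker of leaf mesophyll, phloem, xylem, trichomes, flower or seed. The 3 measured of 5 root markers had a summed linear signal of 514 to 1207 on the albino arrays, against 1889 to 2364 on the control arrays. This sum was mostly PYK10, a root beta-glucosidase, which differed by -2.29 in replicate 1 and -0.67 in replicate 2 (limma adjusted p = 0.75). Of the dim root hair genes, EXPA7 differed by a mean of -0.28 (SE 0.35) but went opposite ways, by -0.70 in replicate 1 and 0.14 in replicate 2. EXPA18 differed by 0.22 (SE 0.27), with 0.18 and 0.27. The guard cell gene FAMA differed by -0.22 (SE 0.27), with -0.07 in replicate 1 and -0.37 in replicate 2. The meristem gene CLV3 differed by a mean of -0.20 (SE 0.54) and went opposite ways, by -0.66 and 0.26. PYK10 thus moved in the same direction as WRKY53, WRKY6, WRKY47 and ZAT10, and its part in their differences was not tested. In such whole-sample RNA, fewer cells of a type and less of a transcript per cell cannot be told apart.

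**Figure D5:**
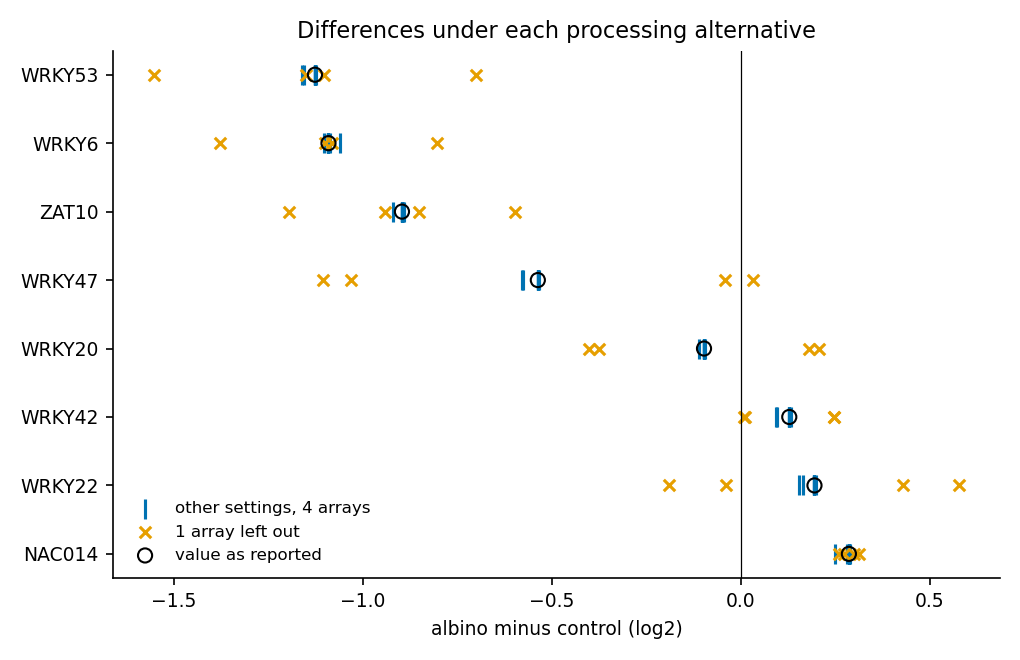
Albino minus control (log2, x axis) for the 8 genes as reported (open circles), under the other settings that keep all 4 arrays (blue bars) and with 1 array left out (orange crosses). WRKY53, WRKY6, ZAT10, WRKY42 and NAC014 keep their sign in every setting that holds them (the filters on dim probe sets leave out WRKY42), while WRKY47, WRKY20 and WRKY22 cross 0 when 1 array is left out.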

How the data were processed

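Total RNA of 4 Arabidopsis thaliana samples was measured on 4 one-colour arrays. The deposited log2 value of a probe set is an RMA summary, per the submitters' processing notes. The software and the grouping of arrays are not stated there. RMA gives no detection call, and the number of arrays limits the precision. Groups and replicate numbers come from the titles. Genes were named from the platform annotation (13513 probe sets with 1 gene, 503 with several, 8730 with none), and 13436 matched the TAIR10.1 gene records, used for names and gene order only. A gene was represented by its brightest single-gene probe set. The members and lists were chosen with earlier results of these data known.

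Albino minus control was fitted over all 22746 probe sets in R 4.3.3 by limma 3.58.1 (two-sided moderated test from lmFit and eBayes, Benjamini-Hochberg adjustment, threshold 0.05), with 2 residual degrees of freedom, or 1 when replicate number was a block. The code was tested on simulated data with variances drawn from the prior of the blocked fit. A first simulation, with variances held at their shrunken values, had given more false calls than its limit. The simulated arrays had no effect of replicate number and were fitted without the block. The simulation therefore does not check either fit on arrays that differ by replicate number, as these do. SEs and intervals come from the unblocked fit unless stated. The rule for named genes took all 8 members and, per related list, up to 2 genes of the same sign in both replicates with the largest difference. COR47, COR15A and the markers were named besides, as the remaining measured members of their lists. Deviations from the group means correlated at 0.66 between arrays of the same number (across probe sets), but the labels do not say what a number marks. Alternatives were other scalings, filters on dim or cross-hybridizing probe sets, other variance models, the block and leaving out each array.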

Additional observations from a re-analysis of the deposited data

How the results depend on the processing

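Of the 15 genes named by the rule, 0 passed the threshold under any of 13 alternatives and 3 changed sign, each only with 1 array left out. Counts of called members were 0 in every setting. Over all probe sets, limma called 0 higher and 0 lower with all 4 arrays, except 1 lower with no variance moderation. With 1 array left out the counts ran from 0 to 30 higher and 0 to 152 lower, the highest being without albino replicate 2, where albino is a single array assumed to vary like the controls. At an unadjusted p under 0.05 the replicate block gave 1712 lower and 1631 higher, against 701 and 609 without it. The replicate block changed no call of the 15 genes. Its adjusted p was lower for each of the 8 members, between 0.217 for WRKY6 and 0.792 for WRKY20. The median of the WRKY genes was -0.54 without the dimmest 25% of probe sets and -1.09 without the dimmest 50%, fits that hold 5 and 3 of the 6. With 1 array left out it ran from -0.74 to 0.11. The sign changes of these 3 genes, WRKY20, WRKY22 and WRKY47, were in fits that set unequal numbers of arrays of replicates 1 and 2 against each other. There WRKY20 ran from -0.40 to 0.21, WRKY22 from -0.19 to 0.58 and WRKY47 from -1.11 to 0.032. ERF summaries were not run, since 0 members were paired with a single-gene probe set. Depth in the sense of signal over background is unknown for RMA values, so the dim WRKY42 has no detection limit here.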

Other observations

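The nearest measured genes on either side of each of the 8 factor genes, in the TAIR10.1 gene order, were looked up after the values had been seen. Of these 16 neighbours, 5 were lower and 5 higher in both replicates, against 28.5% and 34.6% of all probe sets. Limma's adjusted p was passed by 0 of them, against 0% of all probe sets. Of the 10 that flank the 5 factor genes lower in both replicates, 2 were lower and 4 higher in both, against the same 28.5% and 34.6%. AT1G62290, directly beside WRKY6, went the other way from it, with 7.88 in albino and 6.74 in control (group means). Its difference of 1.14 (SE 0.49) was 1.42 in replicate 1 and 0.85 in replicate 2, with limma adjusted p = 0.923. The neighbours of WRKY53, 3xHMG-box2 and AT4G23820, differed by -0.55 (SE 0.32) and 0.59 (SE 0.34).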
